A study of Mus musculus with 21 samples.

Results

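Transcripts of 8 genes of Schwann cells and their myelin, Mbp, Pmp22, Prx, Mag, Sox10, S100b, Ncmap and Cnp, were examined in mouse gastrocnemius muscle. They were chosen by gene symbol and not by a rule on measured values, although earlier results of these data were known. The count table held 40853 genes, and all 8 had enough reads to be among the 16129 genes tested. RNA was isolated from the whole medial belly of the gastrocnemius of 21 female C57BL/6NJ mice, with 1 library per mouse and 7 mice in each of 3 groups. Mice entered the study at 10 weeks of age. Those of the Inactive group lived in standard cages, those of the Active group ran on a treadmill for 6 weeks, and those of the Activity Reduction group ran for 4 weeks and were then inactive for 2 weeks. Training was 5 sessions per week of up to 40 min, at about 70% of maximal speed after a warm-up. All groups carried the same genotype and took the same maximal running tests, so the Inactive mice had also run on the treadmill at those tests. In all groups, tissue was taken 48 to 72 h after the last test. The questions were whether these transcripts differed with training or its reduction, and how they moved with other myelin transcripts in each sample.

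Schwann cells wrap the axons of peripheral nerves, and those around large axons form the myelin sheath that speeds conduction. The myelinating program is driven by SOX10, which acts with EGR2 (Krox20) on genes of compact myelin such as Pmp22 and Mbp, while MAG lies in the uncompacted membrane that faces the axon and periaxin, the product of Prx, links the outer Schwann cell membrane to its basal lamina. Nerve branches that run through the belly are their best known source in muscle, although Pmp22, Prx, S100b and Cnp are also made by other cells. In such bulk RNA, fewer Schwann cells and less RNA per Schwann cell cannot be told apart.

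Per transcript length, as TPM over the exons of the GENCODE annotation of GRCm39, the 8 transcripts were rare beside those of the fibers. Pmp22, which encodes a tetraspan protein of compact myelin, had the highest level, with a median of 26.1 TPM over the 21 libraries (range 19.98 to 70.3). Cnp, which encodes a phosphodiesterase of the myelinating cell's cytoplasm that is also made elsewhere, followed at 11.1 TPM (8.32 to 14.2), and its range lay wholly below that of Pmp22. Mbp, the basic protein that compacts the cytoplasmic faces of the membrane, had 8.22 TPM (5.21 to 27.5) and Prx had 5.69 TPM (4.45 to 16.9). The levels of S100b, a calcium-binding protein of Schwann cells and of some other cells, and of Sox10 were 2.34 TPM (1.15 to 5.21) and 2.22 TPM (0.960 to 3.85). Mag had 0.691 TPM (0.363 to 2.00), and Ncmap, which encodes a small membrane protein of peripheral myelin, had 0.610 TPM (0.332 to 1.45). Apart from Pmp22 and Cnp, neighbors in this order had overlapping ranges, and S100b with Sox10 and Mag with Ncmap had medians that differed by less than the spread between libraries. Acta1, the actin of the fibers, had 39645 TPM.

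The labeled tissue was muscle, and all 8 fiber genes checked were among the tested genes. Their summed level varied by only 1.23 times between the lowest and highest library. Within that sum, Myh7 ran from 4768 to 33771 normalized counts, with the highest value in Inactive replicate 7. Of 6 oligodendrocyte genes of central myelin, Mog, Opalin and Olig2 had a median of 0 normalized counts over the libraries other than replicate 7 of the Inactive and Active groups, and Hapln2, Myrf and Mobp had medians of 6.26, 12.6 and 32.0. Mobp was thus counted about as often as Mag and Ncmap, whose medians over the same libraries were 30.0 and 32.2. In Active replicate 7, Mobp had 113 and Opalin 9.33, the highest of all libraries for both, while Inactive replicate 7 had 17.8 and 0. The part of these transcripts in the results was not tested. Libraries held from 38482455 to 59785132 counted reads, and Mbp, Pmp22, Prx and Cnp had at least 179 in each. Ncmap, Mag, S100b and Sox10 were less deeply counted, with as few as 14, 16, 19 and 28 reads in a library.

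On the GRCm39 assembly, Mbp lies on chromosome 18 from 82493207 to 82603763, Pmp22 on chromosome 11 from 63019718 to 63050600, Prx on chromosome 7 from 27196813 to 27219639 and Mag on the same chromosome from 30598464 to 30614474. Sox10 lies on chromosome 15 from 79039108 to 79049469, S100b on chromosome 10 from 76085090 to 76097159, Ncmap on chromosome 4 from 135094616 to 135125538 and Cnp on chromosome 11 from 100465730 to 100482936. Cnp shares 16.5% of its exon length with Dnajc7, a chaperone gene on the opposite strand whose median count was 3631. As the strand setting of the counting is not given in the sources used here, reads of Dnajc7 cannot be told apart from those of Cnp in the shared stretch, and the values of Cnp are uncertain to that extent. Exons of Mbp, Prx and Mag share 5.68%, 5.66% and 7.72% of their length with antisense long noncoding RNAs, and the one of these that was in the count table, Gm15541 across from Prx, had a median of 7 counts.

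Normalized counts, which are raw counts divided by DESeq2 size factors, showed wide spread within the Inactive and Active groups. For each of the 8 the groups overlapped in all 3 comparisons, while groups did not overlap for 0.254% of all transcripts in Active against Inactive, 0.118% in Activity Reduction against Inactive and 0.291% in Activity Reduction against Active. For Mbp, the lowest, median and highest normalized counts were 459.5, 609.6 and 1744 in the Inactive group, 500.1, 704 and 2353 in the Active group, and 498, 779 and 991 in the Activity Reduction group. One Inactive and one Active library stood far above the rest, while the Activity Reduction libraries ran from replicate 7, below all but Inactive replicate 6, to replicate 3, below only those libraries and Active replicate 3. Pmp22 had the same shape, with 725, 827 and 2459.5 in the Inactive group, 867, 1005 and 2530.2 in the Active group, and 918, 951 and 1226 in the Activity Reduction group. The highest Inactive and Active libraries were again replicate 7 of each group. Prx ran from 223 through a median of 249 to 724 in Inactive mice, from 238 through 284 to 842 in Active mice, and from 251 through 303 to 357 in Activity Reduction mice, so the Activity Reduction range lay inside both of the others.

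For Mag, which acts in the contact between the Schwann cell and the axon, the lowest, median and highest normalized counts were 21.5, 27.0 and 53.4 in the Inactive group, 19.7, 28.7 and 87.1 in the Active group and 15.9, 42.0 and 58.6 in the Activity Reduction group. Here the median of the Activity Reduction group was above both other medians, yet that group also held the lowest library. Ncmap had 17.8, 34.0 and 76.5 in the Inactive group, 18.6, 29.9 and 63.2 in the Active group, and 19.7, 33.6 and 56.5 in the Activity Reduction group, with no order among the groups. Cnp varied least, from 304.8 through 385 to 496 in the Inactive group, from 321.8 through 386 to 505 in the Active group and from 355 through 398 to 459.6 in the Activity Reduction group.

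Sox10 and S100b, the factor of the lineage and its common marker, differed from the others in shape. Sox10 had 28.0, 53.5 and 108.5 in Inactive mice, 36.8, 66.5 and 112 in Active mice, and 63.1, 76.9 and 115 in Activity Reduction mice. In the Activity Reduction group every library was above 6 of the 7 Inactive libraries, the exception being Inactive replicate 7. S100b had 20.8, 33.7 and 70.3 in the Inactive group, 25.3, 39.7 and 91.2 in the Active group, and 41.4, 55.0 and 63.8 in the Activity Reduction group, whose lowest library was above 5 of the 7 Inactive libraries.

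**Figure D1:**
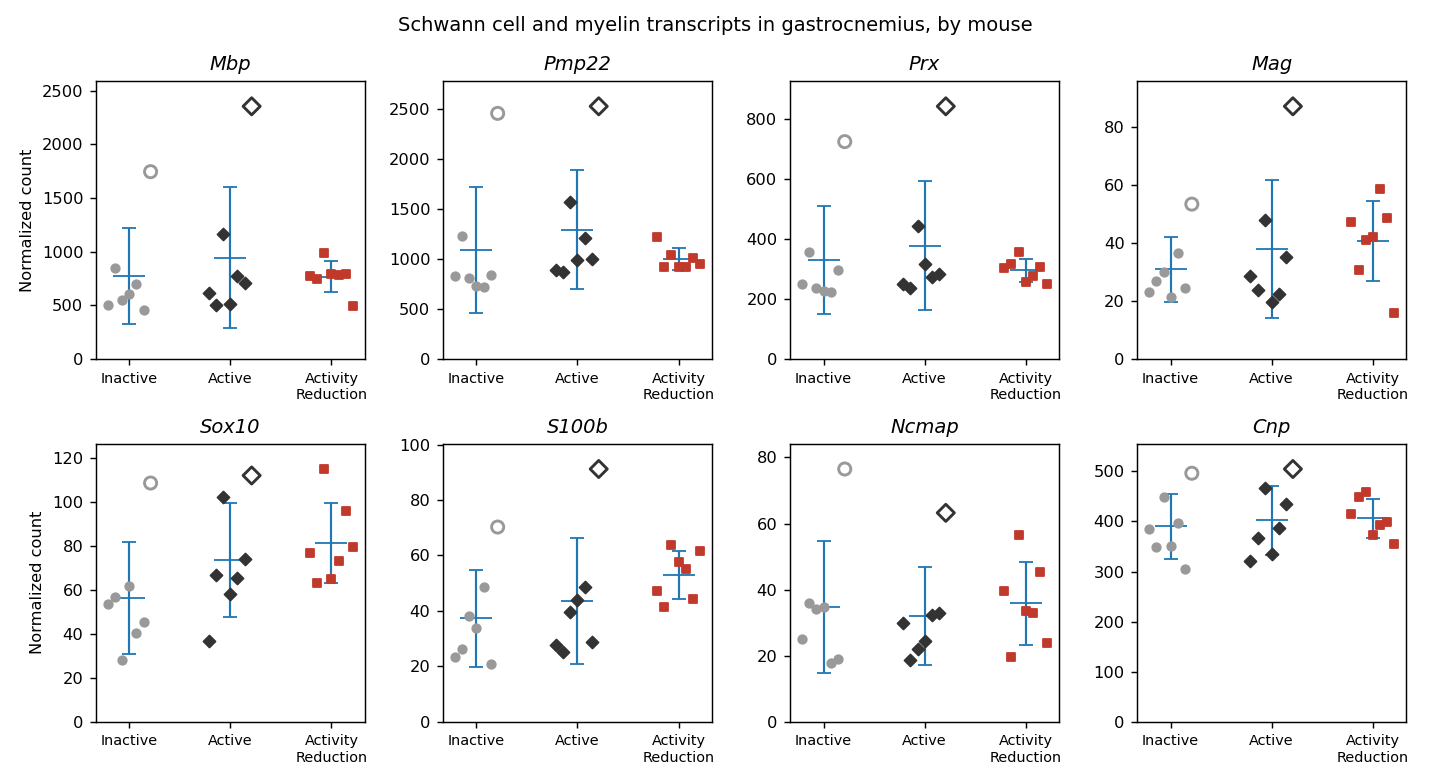
Normalized counts (vertical axes, from 0) of the 8 transcripts in each of the 21 mice, with gray circles for Inactive, black diamonds for Active and red squares for Activity Reduction mice. Blue bars are the mean ± SD (n = 7), and open symbols mark replicate 7 of the Inactive and Active groups, which at 1744 and 2353 for Mbp lie far above the other mice.

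Between Active and Inactive mice 0 of the 8 transcripts were called, where 0% of all 16129 transcripts passed the thresholds of an adjusted p-value under 0.05 and a log2 fold change over 0.25 in either direction. The log2 fold change of Sox10 was 0.39 ± 0.25 (SE; adjusted p = 0.589, quasi-likelihood test of edgeR, Benjamini-Hochberg over all transcripts tested). Those of Mbp, Pmp22 and Prx were 0.29 ± 0.32, 0.26 ± 0.26 and 0.20 ± 0.28, and Ncmap alone had a negative value, -0.11 ± 0.32. At an unadjusted p-value under 0.05, 10.9% of all transcripts and 0 of the 8 differed. DESeq2, the tool of the study, called 52 transcripts in this comparison, 0.373% of those it gave an adjusted p-value, and 0 of the 8. The 7 positive values and their median log2 fold change of 0.25 stand beside a median of 0.01 over all transcripts. The values moved with replicate 7 of either group. Without Active replicate 7 alone, Mbp, Prx, Mag, S100b and Cnp had negative values, -0.12 for Mbp and -0.13 for Prx. Without Inactive replicate 7 alone, Mbp had 0.63 and Prx 0.52. With both left out, 7 of the 8 were positive again, with 0.22 for Mbp and 0.19 for Prx.

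In the comparison of the Activity Reduction and Inactive groups 0 of the 8 passed, beside 0.0124% of all transcripts, which were Kcnj11 and Smyd2. Sox10 had the largest of the 8 differences, a mean normalized count of 81.2 ± 18.4 (SD, n = 7) against 56.3 ± 25.6 and a log2 fold change of 0.53 ± 0.25 (SE), with a 95% interval from 0.01 to 1.05. It was the 1 of the 8 with an unadjusted p-value under 0.05 (adjusted p = 0.644, edgeR), where 7.73% of all transcripts had one. S100b, at 53.0 ± 8.73 (SD, n = 7) against 37.3 ± 17.4, had a log2 fold change of 0.51 ± 0.28 (SE; adjusted p = 0.715, edgeR). The values for Mag and Ncmap were 0.40 ± 0.32 and 0.05 ± 0.32. Mbp, Pmp22 and Prx, the proteins of compact myelin and of the outer membrane, had log2 fold changes of -0.01 ± 0.32, -0.12 ± 0.26 and -0.16 ± 0.28 in the same fit. DESeq2 called 21 transcripts here (0.227%) and 0 of the 8, although it gave no adjusted p-value for Mag, Sox10, S100b and Ncmap.

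Between the Activity Reduction and Active groups, 0 of the 8 and 0% of all transcripts passed. Pmp22 had the largest difference, 1001 ± 111 (SD, n = 7) against 1297 ± 596 and a log2 fold change of -0.38 ± 0.26 (SE; adjusted p = 0.549, edgeR). Prx and Mbp followed with -0.36 ± 0.28 and -0.30 ± 0.32, while S100b, Ncmap and Sox10 had 0.27 ± 0.28, 0.17 ± 0.32 and 0.14 ± 0.25. Of the 8, 0 had an unadjusted p-value under 0.05, beside 13.3% of all transcripts, and DESeq2 called 113 transcripts (0.849%) and 0 of the 8. The test of any difference among the 3 groups called 0 of the 8 and 0% of all transcripts as well, and its smallest adjusted p-value among the 8 was that of Sox10 (adjusted p = 0.502, edgeR). In that test 12.6% of all transcripts and 0 of the 8 had an unadjusted p-value under 0.05.

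Exact permutation tests on the normalized counts were run for each of the 8 transcripts in each of the 3 comparisons, 24 in all. Of these two-sided tests 0 gave a p-value under 0.05, where 7 mice against 7 could have reached 0.000583. The smallest were those of S100b (exact permutation p = 0.0571) and Sox10 (exact permutation p = 0.0612), both for Activity Reduction against Inactive. Intervals were wide for most of the 8: the 95% interval of the log2 fold change of Mbp ran from -0.67 to 0.66 in that comparison, while that of Cnp ran from -0.16 to 0.29.

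Less of each transcript's variation lay between the 3 groups than within them, although the share that chance alone gives was not computed. The share between groups was 18.6% for Sox10, 13.97% for S100b, 6.59% for Pmp22 and 6.20% for Mag, and between 1.28% for Ncmap and 4.79% for Prx for the other 4. The rest lay between mice of 1 group, where 2 libraries stood apart. For Mbp, Active replicate 7 and Inactive replicate 7 had 3.34 and 2.48 times the median of the other 19 libraries. The folds for Prx were 3.04 and 2.62, and those for Pmp22 were 2.73 and 2.66. They were 2.90 and 1.78 for Mag, 2.20 and 1.70 for S100b, 1.96 and 2.38 for Ncmap, 1.72 and 1.67 for Sox10 and 1.31 and 1.29 for Cnp. These libraries were the 2 highest of all 21 for 6 of the 8 transcripts, the exceptions being Mag and Sox10, which were higher still in an Activity Reduction library than in Inactive replicate 7 or in both.

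Other transcripts of myelin moved in the same libraries. The lipid raft protein Mal had 325.5 and 254 normalized counts in Active and Inactive replicate 7 beside a median of 101 in the other 19. Of 17 further genes of myelinating Schwann cells, 9 had their 2 highest values in these libraries, with median folds of 2.03 and 1.71. Cdh19, a cadherin of Schwann cells on a list of 9 non-myelinating Schwann cell genes, was 2.71 and 2.30 times the median. That list had median folds of 1.61 and 1.54, with 6.21 and 1.64 for Gfap but 0.86 and 0.61 for Foxd3. Its most abundant gene, Plekhb1, had 0.95 and 1.00. The summed level of the 17 further myelin transcripts ran from 45.3 to 119 CPM in Inactive, from 44.98 to 145 CPM in Active and from 48.0 to 80.5 CPM in Activity Reduction mice. Without replicate 7, the highest Inactive and Active libraries had 70.9 and 101 CPM.

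Not all nerve or connective tissue transcripts followed. The neurofilament genes Nefl and Nefm, the neuronal tubulin Tubb3 and Snap25, a protein of synaptic vesicle release, had 3.83, 4.07, 4.68 and 3.32 times the median in Active replicate 7, yet 0.77, 0.34, 0.33 and 0.54 times in Inactive replicate 7. These were the highest folds in Active replicate 7 of a list of 10 axonal genes. Its median folds were 2.45 and 0.74, without Chat and Slc5a7, which had a median of 0 and so no fold. Nefm and Tubb3 had 3.56 normalized counts each in Inactive replicate 7 and Nefl had 7.12, so their folds there rest on few reads. Stmn2, the most abundant of the axonal list with a median of 103 normalized counts, had 1.11 and 0.71, Prph 1.58 and 1.16, Nefh 1.56 and 1.34 and Isl1 0.90 and 0.96. Chat, which marks motor neuron cell bodies, was listed at 0 in every library. Median folds were 1.42 and 1.11 for 6 genes of the perineurium, 1.02 and 1.03 for 5 fibroblast genes, 0.93 and 0.99 for 4 endothelial genes and 1.06 and 1.01 for 8 fiber genes. For 4 leukocyte genes they were 1.55 and 1.15, with 3.32 and 1.18 for Cd68 and 1.88 and 1.13 for Adgre1, both macrophage genes that were highest of all libraries in Active replicate 7. Transcripts of adipocytes were higher in both libraries, with median folds of 1.89 and 2.22 over 7 genes and 3.78 and 4.19 for Lep, the gene of leptin. The part of fat, leukocytes or nerve taken with the belly in these values was not tested.

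**Figure D2:**
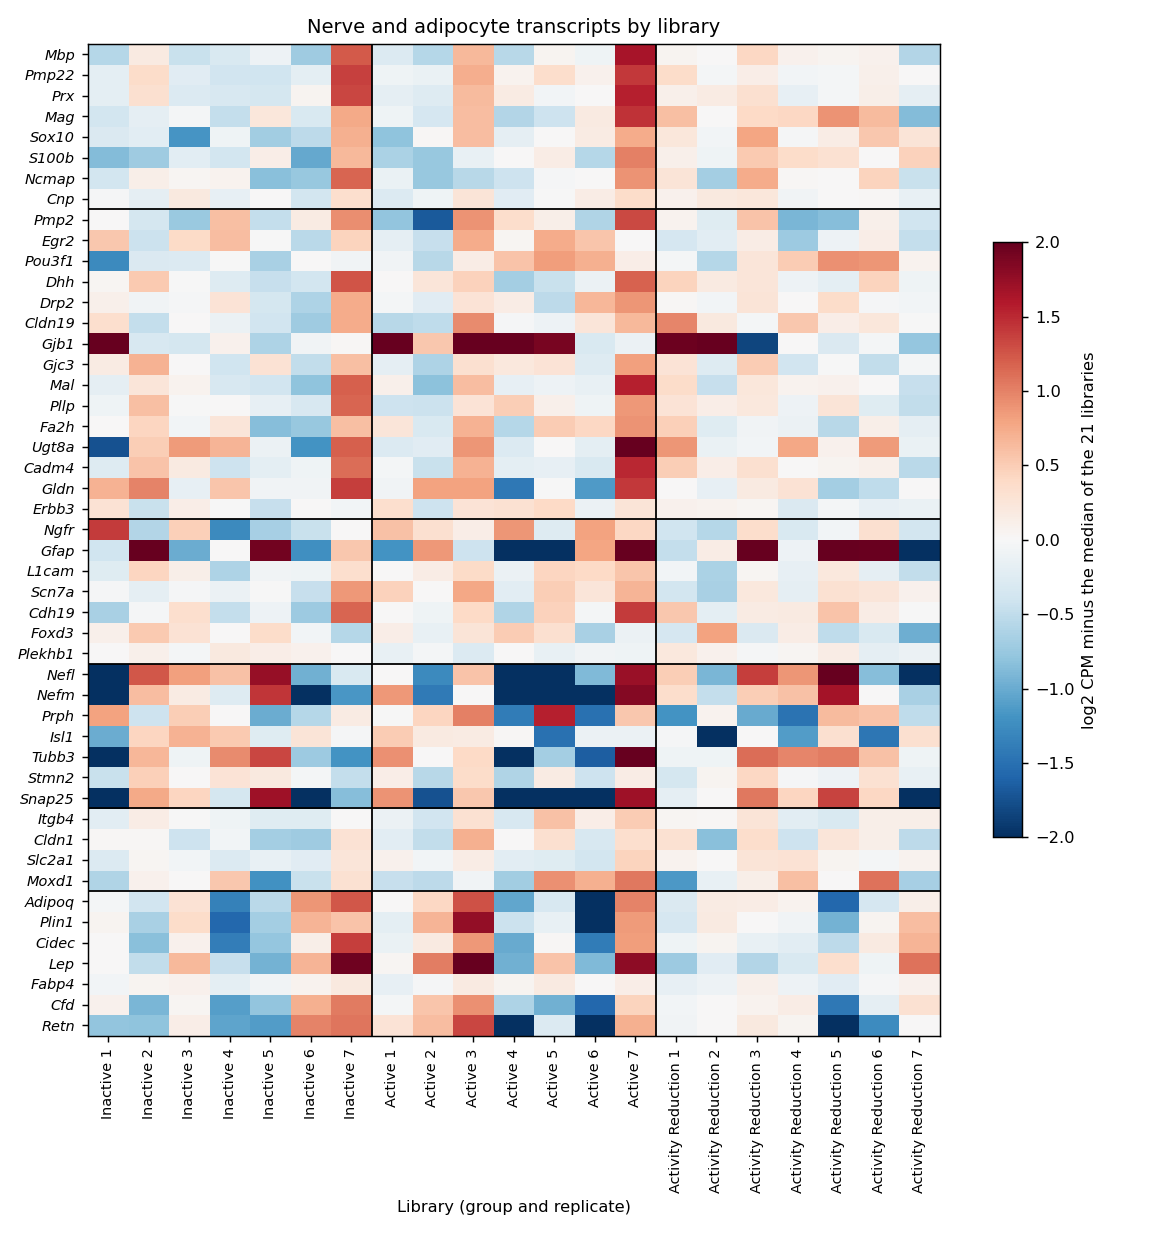
Log2 CPM of each transcript minus its median over the 21 libraries (color, from -2 in blue to 2 in red), with libraries in columns by group and genes in rows. Black lines divide, from the top, the 8 genes, other myelin genes, non-myelinating Schwann cell genes, axonal genes, perineurial genes and adipocyte genes, and replicate 7 of the Inactive and Active groups is red for Mbp, Pmp22, Prx and Mal.

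With the 2 libraries left out, a choice made after their values were seen, the values of Mbp, Pmp22 and Prx in Activity Reduction against Inactive changed sign. Their log2 fold changes were then 0.33 ± 0.18 (SE) for Mbp, 0.21 ± 0.13 for Pmp22 and 0.15 ± 0.14 for Prx. Sox10 then had 0.77 ± 0.22 (adjusted p = 0.363, edgeR) and S100b 0.74 ± 0.21 (adjusted p = 0.372, edgeR), so neither was called, and 0% of all transcripts were called in this fit. In that comparison Mag had 0.58 ± 0.26 (adjusted p = 0.598, edgeR). Sox10, S100b and Mag, 3 of the 8, then had an unadjusted p-value under 0.05, beside 7.92% of all transcripts. For Sox10 the 7 Activity Reduction and the other 6 Inactive libraries then did not overlap, as was so for 0.0868% of all transcripts in the same direction and 0.205% in either. This follows from leaving out the only Inactive library that had overlapped them, so it was not tested. Between the Activity Reduction and Active groups, S100b had 0.56 ± 0.21 (SE; adjusted p = 0.282, edgeR) without the 2 libraries, against 0.27 ± 0.28 with them. In that fit 0.00617% of all transcripts passed the thresholds, and S100b was the 1 of the 8 with an unadjusted p-value under 0.05, beside 12.9% of all. In Active against Inactive, Pmp22 had 0.35 ± 0.14 (adjusted p = 0.400, edgeR) and Sox10 0.50 ± 0.22 (adjusted p = 0.443, edgeR), where 0% of all transcripts passed, and these 2 of the 8 and 10.7% of all had an unadjusted p-value under 0.05.

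**Figure D3:**
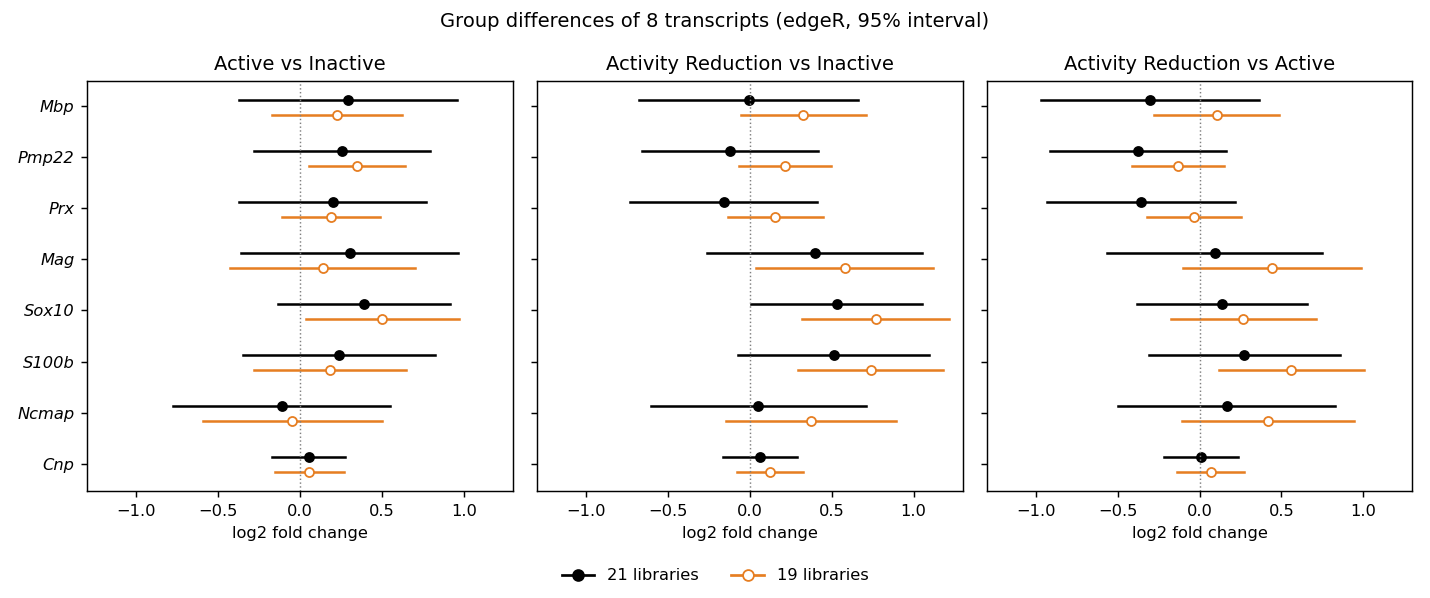
Log2 fold change (horizontal axes) of each of the 8 transcripts in the 3 comparisons, with 95% intervals, from all 21 libraries (black) and from the 19 left without replicate 7 of the Active and Inactive groups (orange, open). For Mbp in Activity Reduction against Inactive, the value moved from -0.01 to 0.33, and that of Sox10 from 0.53 to 0.77.

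To set each transcript against the other myelin transcripts of its own sample, a myelin index was computed as the mean over the 17 further myelin genes of log2 CPM standardized over the 21 libraries, so that none of the 8 genes was part of it. It measures myelin transcripts, and whether these follow the amount of nerve was not tested. In Inactive replicate 7, where the index was high, the axonal genes had a median fold of 0.74. Apart from Snap25 and Stmn2, however, the axonal genes had medians of at most 10.6 normalized counts outside Active and Inactive replicate 7. The index was 1.63 in Active replicate 7, 1.28 in Inactive replicate 7 and 0.967 in Active replicate 3, and ran from -0.929 to 0.430 in the other 18 libraries. Its medians were -0.164 in the Inactive, -0.157 in the Active and -0.107 in the Activity Reduction group, so the groups did not divide by it.

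Mbp rose with the index most closely. Its log2 CPM had r = 0.910 and rho = 0.827 with the index across the 21 libraries (permutation p = 1e-05 for both, the smallest that 100000 resamples can give). Pmp22 had r = 0.903 and rho = 0.784 (permutation p = 1e-05 and 7e-05), and Prx had r = 0.874 and rho = 0.660 (permutation p = 1e-05 and 0.00153). The other 5 were looser, with r = 0.729 for Ncmap, 0.721 for Cnp, 0.696 for Mag, 0.614 for Sox10 and 0.571 for S100b, and the permutation p-value of r was 0.00624 for S100b, the largest of these 5. These 8 relations were the ones computed, and their p-values are not adjusted. Without the 2 libraries farthest from the median of the index, which were Active and Inactive replicate 7, r fell to 0.777 for Mbp, 0.762 for Pmp22 and 0.672 for Prx. It was then 0.558 for Cnp, 0.491 for Ncmap, 0.482 for Mag and 0.463 for Sox10. For S100b r was 0.265 (permutation p = 0.274), so that relation rested on these libraries. By rank, rho was then 0.242 for S100b (permutation p = 0.315) and 0.391 for Mag (permutation p = 0.0984). For the others rho ran from 0.514 for Sox10 to 0.767 for Mbp.

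The libraries also divided by their content of liver transcripts into 8 with more and 13 with fewer, and both replicate 7 libraries were among the 13. The division was uneven over the groups, since 5 of the 8 were Active, 2 Activity Reduction and 1 Inactive. In the order of the sample records the 8 came before all of the 13, and what that order stands for is not stated. Within the 13, r with the index was 0.949 for Mbp, 0.915 for Pmp22, 0.907 for Prx and 0.898 for Ncmap. Within the 8, which held neither of the 2 libraries, r was 0.862 for Mbp (exact permutation p = 0.006002) and 0.889 for Pmp22. It was 0.826 for Prx, but 0.367 for Ncmap (exact permutation p = 0.374). By rank, rho within the 8 was 0.786 for Mbp, 0.762 for Pmp22, 0.571 for Prx (exact permutation p = 0.151) and 0.476 for Ncmap. The 8 held Active replicate 3, whose index of 0.967 was their highest, and its part in these values was not tested. One gene of the myelin index follows the liver division, Gjb1, which encodes connexin 32 of both Schwann cells and hepatocytes. The median of Gjb1 was 415 normalized counts in the 8 libraries, beside 73.3 in the 13, while the medians of Mbp were 678 and 779. How far Gjb1 carried the liver division into the index was not tested.

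**Figure D4:**
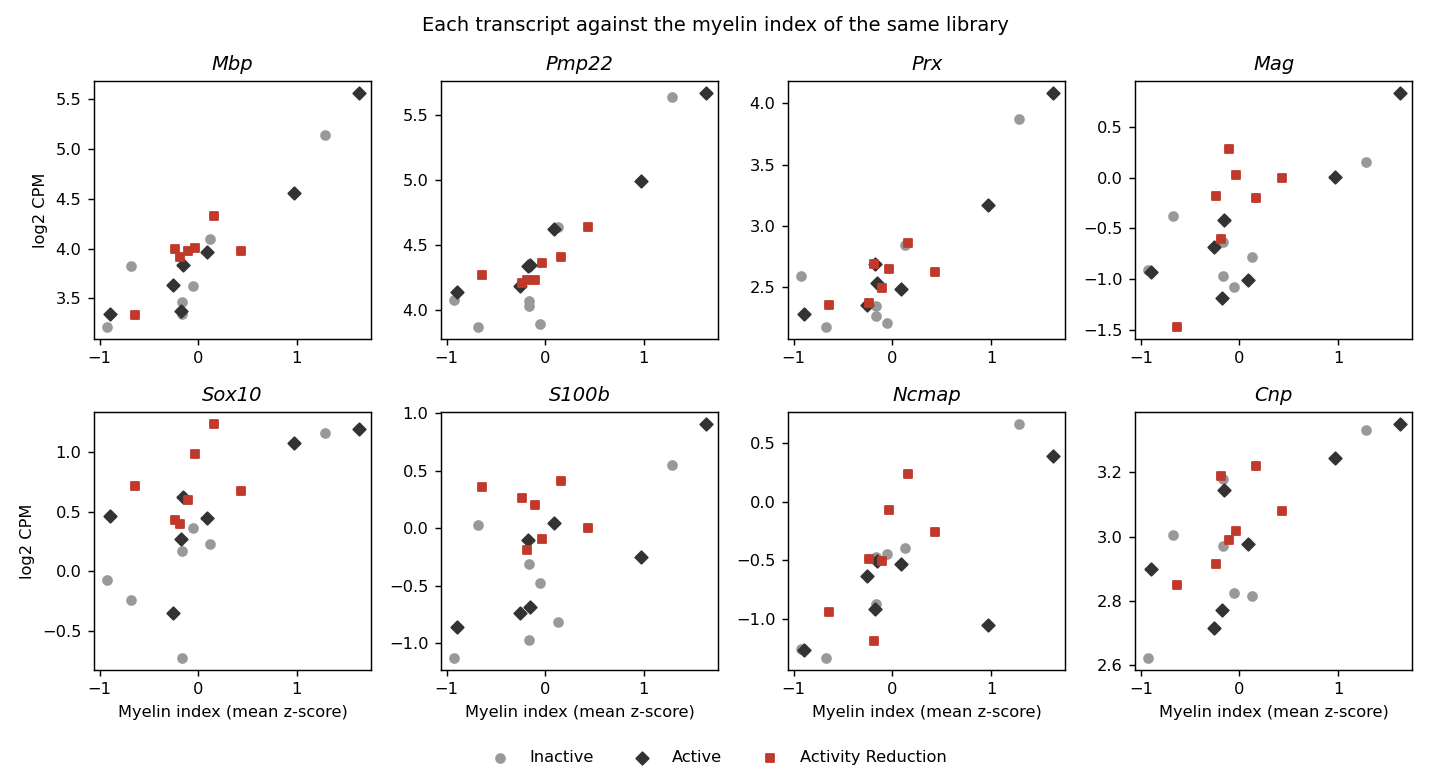
Log2 CPM of each of the 8 transcripts (vertical axes) against the myelin index of the same library (horizontal axes, mean standardized level of 17 other myelin genes), with 1 point per mouse. The values of r were 0.910, 0.903 and 0.874 for Mbp, Pmp22 and Prx and 0.571 for S100b, and below an index of 0 the points of Pmp22 and Prx show little rise.

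The same relation was fitted for all 16129 transcripts with the groups in the model. The slope on the index was past an adjusted p-value of 0.05 for 0.211% of all transcripts, 34 in number, of which 33 had a positive slope. Of the 8, 4 were among them. Mbp rose by 0.85 ± 0.08 (SE) on the log2 scale per unit of the index (adjusted p = 1.62e-06, edgeR), Prx by 0.69 ± 0.08, Pmp22 by 0.68 ± 0.07 and Ncmap by 0.73 ± 0.13 (adjusted p = 0.0148, edgeR). The slopes of Mag, Sox10, S100b and Cnp were 0.66 ± 0.14, 0.51 ± 0.12, 0.53 ± 0.14 and 0.23 ± 0.05, with adjusted p-values of 0.0535, 0.0864, 0.197 and 0.0770 (edgeR). All 8 slopes were positive, with a median of 0.67, where the median over all transcripts was -0.00145. Without the 2 libraries the fit called 0 transcripts, of all as of the 8, while 5.4% of all transcripts had an unadjusted p-value under 0.05. Mbp then had a slope of 0.62 and Pmp22 one of 0.44 (adjusted p = 0.158 for both, edgeR), and the slope of S100b was 0.13.

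**Figure D5:**
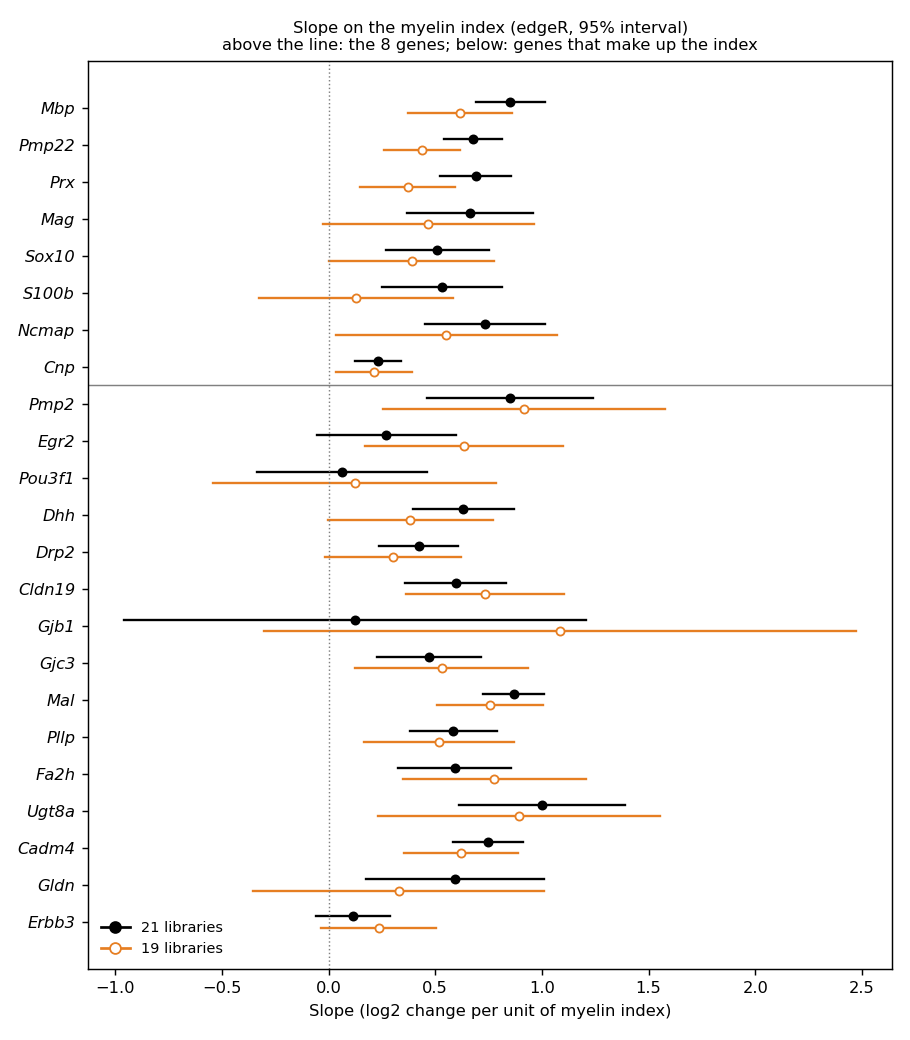
Slope of each transcript on the myelin index (horizontal axis, log2 change per unit of the index) with 95% intervals, from 21 libraries (black) and without replicate 7 of the Active and Inactive groups (orange, open). Above the gray line are the 8 genes, with slopes from 0.23 (Cnp) to 0.85 (Mbp), and below it are genes that make up the index.

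Of the 17 genes that make up the index, 7 were called in that fit, which follows in part from how the index was made. Mal had a slope of 0.87 ± 0.07, close to that of Mbp. Pmp2, Drp2 and Cldn19, which encode a fatty acid binding protein, a partner of periaxin and a claudin of the sheath, had slopes of 0.85, 0.42 and 0.60, and of these Cldn19 was called. Egr2, the transcription factor of myelination, had 0.27 ± 0.16 (adjusted p = 0.875, edgeR), and the neuregulin receptor gene Erbb3 had 0.11 ± 0.08. In the comparisons between groups 0 of the 17 were called. Egr2 had log2 fold changes of 0.07 ± 0.23 in Active and -0.42 ± 0.23 in Activity Reduction against Inactive.

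With the index as a covariate the standard errors of the group differences became smaller, from 0.32 to 0.13 for Mbp in Active against Inactive, and that log2 fold change moved from 0.29 to -0.00484. In Activity Reduction against Inactive, Pmp22 had -0.00488 ± 0.11 (SE), Prx -0.07 ± 0.13 and Mbp 0.10 ± 0.13. Sox10 had 0.60 ± 0.19 (adjusted p = 0.423, edgeR) and S100b 0.58 ± 0.22 (adjusted p = 0.513, edgeR), and 0 of the 8 and 0% of all transcripts were called. At an unadjusted p-value under 0.05 stood 2 of the 8 and 7.66% of all transcripts. Fits with and without the covariate share all libraries.

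The 8 transcripts also moved with each other. Over the 21 libraries all 28 pairs had a positive r, from 0.513 to 0.951 with a median of 0.631. These pairs share libraries and depth and are given as a description. Without replicate 7 of the Active and Inactive groups the range was 0.0921 to 0.829 and the median 0.387. The SD of log2 CPM over the libraries was 0.59 for Mbp, above that of 85.6% of all transcripts tested, and for Pmp22, Prx, Mag, Sox10, S100b and Ncmap it was above that of 79.6% to 84.6%. That of Cnp, 0.20, was near the median of all transcripts. Without the 2 replicate 7 libraries, the SD was above that of 71.0% of all transcripts for Mbp, 62.4% for Pmp22 and 59.3% for Prx. It was then above that of 75.8% to 79.9% for Ncmap, S100b, Mag and Sox10. Outside the 25 myelin genes, the transcripts most like the mean of Mbp, Prx, Mag, Sox10 and Ncmap over the 21 libraries were Kcna1 (r = 0.881), Aatk (0.877), Mapk8ip1 (0.840), Nfasc (0.835), Secisbp2l (0.831), Cdh19 (0.825), Gatm (0.820), Plekha4 (0.815), Vat1l (0.811) and Dusp15 (0.809). Kcna1 encodes a potassium channel and Nfasc a cell adhesion protein, both known from the myelinated axon and its nodal region. Over 19 libraries these 10 had r between 0.578 for Dusp15 and 0.771 for Gatm.

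Since the transcripts moved together across libraries, the letters before their starts were read from the RefSeq promoter table, which is on GRCm38.p6 and held an entry for 6 of the 8 genes, all but Mbp and Sox10. For each, the 250 bases before the most upstream start were searched on both strands for ACAANG and GCGNGGGCG, where N is any base. ACAANG is a loose form of the core letters of SOX factor sites, and GCGNGGGCG holds the letters of EGR sites. The SOX letters were in 3 of the 6, where 36.3% of 32851 promoters of the same length held them, and the EGR letters in 0 of the 6, where 4.70% of all did. The windows of Mag, Cnp and S100b are shown because they hold SOX letters, in capitals, and those of Prx and Pmp22 because these transcripts followed the myelin index most closely among the 6. In Mag, at chr7:30914923-30915172 on the minus strand, a pair of matches starts 77 and 67 bases before the start and faces opposite ways. In Cnp, at chr11:100574689-100574938 on the plus strand, 1 match starts 167 bases before it. In S100b, at chr10:76253586-76253835 on the plus strand, 1 match, facing the other way, starts 250 bases before it, at the edge of the window. Neither word occurs in the windows of Prx, at chr7:27499074-27499323 on the plus strand, and Pmp22, at chr11:63128732-63128981 on the plus strand. A match in letters is no evidence of binding, and these data did not measure it.
Mag: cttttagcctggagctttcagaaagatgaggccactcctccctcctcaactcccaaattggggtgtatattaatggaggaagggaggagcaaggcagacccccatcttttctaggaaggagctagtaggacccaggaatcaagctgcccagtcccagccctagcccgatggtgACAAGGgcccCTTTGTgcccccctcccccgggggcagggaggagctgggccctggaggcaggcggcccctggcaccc
Cnp: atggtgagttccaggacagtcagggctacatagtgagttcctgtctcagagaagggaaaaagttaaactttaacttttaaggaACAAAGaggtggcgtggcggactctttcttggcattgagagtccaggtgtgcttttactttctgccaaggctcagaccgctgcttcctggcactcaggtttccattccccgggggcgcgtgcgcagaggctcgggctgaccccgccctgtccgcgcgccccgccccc
S100b: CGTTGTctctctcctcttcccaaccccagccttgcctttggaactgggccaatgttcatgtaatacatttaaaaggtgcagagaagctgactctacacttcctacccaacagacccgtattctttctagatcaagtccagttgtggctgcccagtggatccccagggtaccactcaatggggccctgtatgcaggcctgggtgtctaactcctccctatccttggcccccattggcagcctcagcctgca
Prx: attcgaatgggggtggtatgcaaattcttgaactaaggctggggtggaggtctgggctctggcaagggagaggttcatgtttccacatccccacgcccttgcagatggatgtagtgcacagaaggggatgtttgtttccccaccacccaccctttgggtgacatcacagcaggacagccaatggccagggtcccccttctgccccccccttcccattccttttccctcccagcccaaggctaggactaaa
Pmp22: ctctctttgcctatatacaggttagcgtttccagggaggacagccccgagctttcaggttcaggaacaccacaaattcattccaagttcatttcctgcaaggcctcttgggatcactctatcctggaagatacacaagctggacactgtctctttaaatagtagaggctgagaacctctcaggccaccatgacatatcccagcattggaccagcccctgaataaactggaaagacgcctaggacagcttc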

How the data were processed

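Poly(A) RNA of 21 gastrocnemius samples was sequenced from paired ends, and the authors' steps were trimming (fastp), alignment on GRCm39 (RNA STAR) and counting per gene (featureCounts). The deposited values are raw counts per gene. All 857913 values of a second table, titled normalized, equaled those of the raw one, so normalized counts were computed as counts divided by DESeq2 size factors. Differential expression was tested with edgeR 4.0.16 (R 4.3.3) by the quasi-likelihood test in 1 fit of the 21 libraries after TMM normalization and filterByExpr, with Benjamini-Hochberg adjustment over 16129 genes and the study's thresholds (adjusted p under 0.05, fold change over 0.25, read as log2, since the study's methods give it no scale). The legend of the study's volcano plots states the fold threshold as a percent change instead. DESeq2 1.42.0 was an alternative. Log2 CPM used a prior count of 2. Exact and resampled permutation tests were two-sided (scipy 1.17.1). TPM used exon lengths from GENCODE, to which symbols holding 89.7% of counts matched. The liver division lay at the largest gap in the summed CPM of 12 liver genes. Scripts were tested on simulated data. Replicate numbers do not state a pairing. Each library is 1 mouse, and counting gives no more precision than the spread between mice. Named were the 8 genes, a set of the 17 further myelin genes, the most abundant or called genes of other cell type lists, and the 10 genes most like the mean of 5 of the 8. Some results are not reported here. Other genes were named after their values were seen. The 8 genes and all lists were chosen with earlier results of these data known.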

Additional observations from a re-analysis of the deposited data

Results flagged for a closer look

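A library was marked where its gap to the nearest other library of its group, divided by the group's range, was above Dixon's 95% critical value for 7 samples. Of 24 groups of 7 libraries, counted separately for each transcript, 12 held such a library. Of these 12 libraries, 11 were replicate 7 of the Active or Inactive group. The same mice recur for each transcript and the transcripts moved together, so the 12 are not independent. They are therefore not set against the rate of about 1 in 20 that chance gives in 1 group of normally distributed values. In normalized counts, Mbp had 1744 in Inactive replicate 7, where the next library had 849, and 2353 in Active replicate 7, where the next had 1168. Pmp22 had 2459.5 in Inactive replicate 7, 2530.2 in Active replicate 7 and 1226 in Activity Reduction replicate 1. Prx had 724 in Inactive replicate 7 and 842 in Active replicate 7. Mag had 87.1 and S100b 91.2 in Active replicate 7. Sox10 had 108.5 in Inactive replicate 7. Ncmap had 76.5 in Inactive replicate 7 and 63.2 in Active replicate 7. Cnp had no such library.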

How the results depend on the processing

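Under 7 alternatives to the edgeR fit of the 3 comparisons and under each left-out library, 0 of the 8 transcripts was called in any comparison (DESeq2 gave no adjusted p for 4 of them in Activity Reduction against Inactive). The counts over all transcripts, in the order Active against Inactive, Activity Reduction against Inactive and Activity Reduction against Active, were 0, 2 and 0. They were 52, 21 and 113 with DESeq2. With RLE factors those of Activity Reduction against Inactive and against Active were 0 and 1 (Gimap6). With only the 2 groups compared, Active against Inactive had 3 and Activity Reduction against Inactive 0. With the liver division as a covariate Activity Reduction against Inactive had 1, and Ncmap in Active against Inactive had 0.20, Mbp in Activity Reduction against Inactive 0.11, and Mag, Ncmap and Cnp in Activity Reduction against Active -0.077, -0.059 and -0.018. With the myelin index as a covariate the counts of Activity Reduction against Inactive and against Active were 0 and 4, and Mbp, Prx and Cnp in Active against Inactive had -0.00484, -0.015 and -0.00984, with Mbp at 0.10 and 0.11 in the other comparisons. Without Active and Inactive replicate 7 together, added after their values were seen, the same counts were 0 and 1, and Mbp, Pmp22 and Prx in Activity Reduction against Inactive had 0.33, 0.21 and 0.15, with Mbp at 0.10 against Active; as log2 ratios of mean normalized counts these were 0.33, 0.22, 0.16 and 0.11. On CPM, that ratio for Cnp in Activity Reduction against Active was -0.028. None of these members' values passed the adjusted threshold, and the cause of the changes was not tested.

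The slope fit called 34 transcripts. It called 0 without both replicate 7 libraries, 10 without Active replicate 7 alone and 9 without Inactive replicate 7 alone. Ncmap lost its call without either (adjusted p = 0.149 and 0.343, edgeR). Mag gained one without Inactive replicate 5 (adjusted p = 0.0201) or Activity Reduction replicate 5 (adjusted p = 0.0429), and S100b without Inactive replicate 5 (adjusted p = 0.0325).

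When each library was left out in turn, the counts ran from 0 to 1, 0 to 6, 0 to 9 and, for the slope, 9 to 36. Activity Reduction against Inactive had 6 without Active replicate 3 and 4 without Activity Reduction replicate 3, and 0 without most other libraries. Activity Reduction against Active had 8 without Active replicate 3 and 9 without Activity Reduction replicate 7. Log2 fold changes in Active against Inactive ran from -0.12 to 0.63 for Mbp, -0.13 to 0.52 for Prx, -0.050 to 0.49 for Mag, -0.051 to 0.47 for S100b, -0.37 to 0.21 for Ncmap and -0.00938 to 0.12 for Cnp. In Activity Reduction against Inactive they ran from -0.11 to 0.33 for Mbp, -0.20 to 0.21 for Pmp22, -0.24 to 0.15 for Prx and -0.10 to 0.37 for Ncmap, and against Active from -0.41 to 0.11 for Mbp, -0.020 to 0.45 for Mag and -0.037 to 0.072 for Cnp.

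Replicate numbers recur in the 3 groups, but of 21 same-numbered pairs 7 had correlated deviations over 0.1 (r from -0.222 to 0.471), and in 4 the first library's best match was its own number, so a shared number was not taken as a pairing. With the replicate block, 4 transcripts were called in Activity Reduction against Inactive, Mbp and Pmp22 there had 0.18 and 0.029, the slope fit called 10 transcripts, and Ncmap lost its slope call (adjusted p = 0.914).

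Depth limits Ncmap, Mag and S100b most. Their lowest counts were 14, 16 and 19 reads.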

Other observations

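Pou3f1 (Oct6), a transcription factor of the promyelinating Schwann cell and 1 of the 17 further myelin genes, had log2 fold changes of 0.68 ± 0.27 (SE) in Active and 0.73 ± 0.27 in Activity Reduction against Inactive. Neither passed (adjusted p = 0.385 and 0.506, edgeR). The comparisons share the Inactive libraries. Its slope on the myelin index was 0.06 ± 0.19, beside 0.85 for Mbp.

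Of the genes of non-myelinating Schwann cells, Cdh19 alone of 7 tested passed the slope test, with 0.67 ± 0.11 (adjusted p = 0.00609, edgeR). Scn7a and L1cam had 0.37 ± 0.10 and 0.23 ± 0.10, Ngfr had -0.00216 ± 0.23, and Plekhb1, which at 56.6 TPM was far above the others of its list, had -0.02 ± 0.04. Perineurial Cldn1, Itgb4 and Slc2a1 had slopes of 0.50, 0.24 and 0.21, and 0 of the 4 genes tested on that list passed. All 7 adipocyte genes had positive slopes, from 0.07 for Fabp4 to 0.59 for Lep, and 0 passed.

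The 34 transcripts of the slope fit included 22 on no list. Their steepest slopes were 1.54 for Vat1l, 0.95 for Kcnk1, 0.92 for Chl1 and 0.90 for Dusp15. The potassium channel genes Kcna1 and Kcna2 had 0.57 and 0.47, Nfasc had 0.69 and Gatm, of creatine synthesis, had 0.37. Gtf2f1 was the 1 transcript with a negative slope, -0.12. These were chosen after their values were seen, and without both replicate 7 libraries 0 of all transcripts passed.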
